A study of Mus musculus with 4 samples.

Results

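The genes described here encode the TATA-binding protein TBP, 4 of the TBP-associated factors (TAFs) that surround it in the general transcription factor TFIID, and the paralogs of these proteins. They are the rows named Tbp, Tbpl1, Taf1, Taf4a, Taf4b, Taf7, Taf7l, Taf9 and Taf9b, which are 9 of the 23420 genes listed. They were chosen by name, with earlier results of these data known. The row Taf4a carries an older symbol of Taf4. Taf1, Taf7l and Taf9b lie on the X chromosome and the other 6 genes on autosomes.

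TFIID binds the core promoter and starts the assembly of the RNA polymerase II preinitiation complex. Germ cells also use paralogs of its subunits: TBPL1 is a TBP-related factor needed for spermatid development, TAF4B is enriched in gonads, and TAF7L is a germ cell form of TAF7. In pachytene spermatocytes, the cells of meiotic prophase in which the autosomes are fully paired, the X and Y chromosomes are kept silent by meiotic sex chromosome inactivation (MSCI), which involves the DNA damage response kinase ATR.

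The study asked whether ATR activity is needed to keep MSCI in place once it has been established. Wild-type C57BL/6 mice of 23 weeks of age gave testicular cells from which pachytene spermatocytes were isolated by FACS with a DNA-binding dye. The sorted cells were cultured for 24 h with the solvent DMSO (Ctrl, 2 libraries) or with 10 µM AZ20, an ATR inhibitor (AZ20, 2 libraries), and each RNA-seq library was made from 15000 cells. According to the methods, each mouse contributed cells to both conditions, so the replicate numbers pair the libraries, and both groups had been sorted and cultured. The labels give a culture temperature of 34 °C and the methods 32 °C.

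The values are transcripts per 1000000 (TPM), which are corrected for gene length. About 14145197 and 16070897 reads on genes lay behind the Ctrl libraries and about 20513136 and 18708269 behind the AZ20 libraries, as recovered from the steps between TPM values. All 12 markers of pachytene spermatocytes were above 1 TPM, with summed levels of 5835 to 6070 TPM in Ctrl and 5919 to 6968 TPM in AZ20. The 10 round spermatid markers summed to 379 and 158 TPM in Ctrl replicates 1 and 2 and to 806 and 264 TPM in AZ20 replicates 1 and 2, so that their sum was 2.12 and 1.66 times as high with AZ20 within the pairs. The 8 Sertoli cell markers summed to 0.647 and 1.80 TPM in Ctrl and to 2.09 and 2.23 TPM in AZ20, and Sox9 and Wt1 were at 0 in all 4. No marker of pachytene spermatocytes or round spermatids was called between the groups by the test given below. Spermatogonia markers (8 genes) summed to 8.26 and 21.2 TPM in Ctrl and to 13.5 and 14.9 TPM in AZ20. Most of this was Uchl1, at 7.60 and 20.1 TPM in Ctrl and 11.2 and 13.8 TPM in AZ20. Most markers of Sertoli cells, spermatogonia, Leydig cells, macrophages and peritubular myoid cells were too low to be tested and so could not be called. None of the few that were tested was called. In such bulk samples, fewer cells of a type and less RNA per cell cannot be told apart.

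A gene was tested if its mean was above 1 TPM in Ctrl or AZ20. The test was limma on log2(TPM + 1), with p-values adjusted by the Benjamini-Hochberg method over all 10316 genes tested, and a gene was called at a change of at least 2-fold with an adjusted p under 0.05. Folds of genes near 0 TPM come out too small on that scale because of the added 1. Of the 9 TBP and TAF genes, 8 were tested and Taf1 was not. Taf7l and Taf9b were called higher with AZ20 and none of the 8 was called lower, against 2.28% of all genes tested called higher and 0.0485% called lower. Among X-linked genes 63.3% were called higher, whereas of the autosomal genes 0.101% passed upward and 0.0503% downward. Taf7l and Taf9b passed the 1 TPM limit only through their AZ20 level, and the third X-linked gene, Taf1, was left out of the test by a low AZ20 level, so the count of called X-linked genes is conditioned on that level. The same limit left 341 of the 1034 X-linked genes listed in the test. With the replicate number as a block, 279 of the 341 X-linked and 157 of the 9931 autosomal genes were called in either direction, against 216 and 15 without it. In limma 0 of the 6 autosomal genes were called, 0 had an unadjusted p under 0.05, and voom on the recovered reads also called 0. Both AZ20 libraries were higher than both Ctrl libraries for 5 of the 8 genes and lower for Tbp, against 26.4% and 11.7% of all genes tested. Of these 5, Taf7l and Taf9b were tested only through their AZ20 level, which largely fixes that direction, so the 5 of 8 cannot be read as an excess. The others were the autosomal Taf4a, Taf4b and Taf7.

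**Figure D1:**
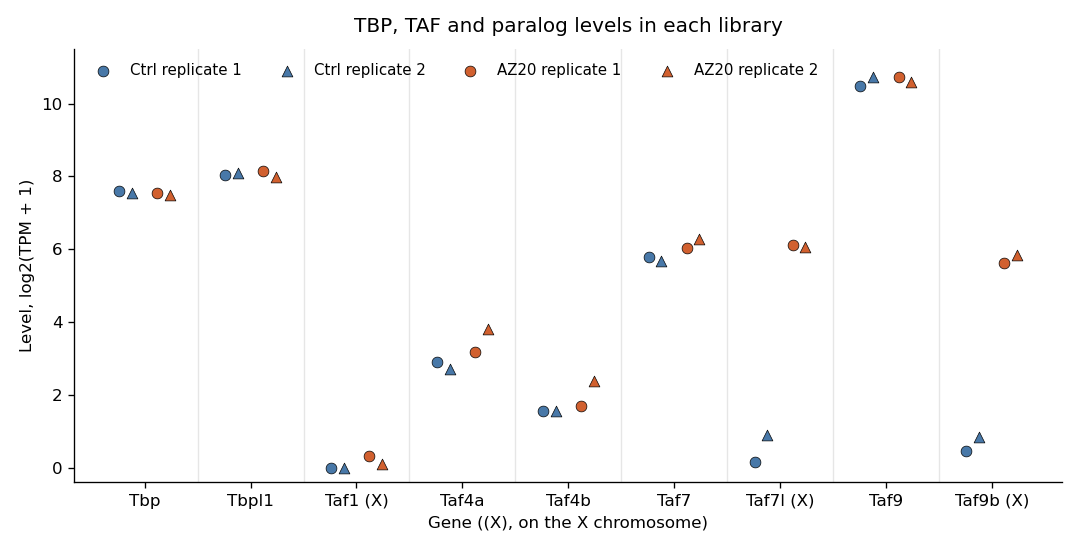
Levels of the 9 genes in each of the 4 libraries, as log2(TPM + 1), with Ctrl in blue and AZ20 in orange. Taf7l and Taf9b were below 1 TPM in both Ctrl libraries and above 47 TPM in both AZ20 libraries, while Tbp, Tbpl1 and Taf9 stayed at nearly the same height.

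Tbp and Tbpl1, the genes for the TATA-binding protein and its relative, were highly expressed, each at nearly the same level in Ctrl and AZ20. Tbp (ENSMUSG00000014767.17, GRCm38 chr17:15499888-15528379, plus strand) was at 195 and 186 TPM in Ctrl and at 184 and 179 TPM in AZ20. Both AZ20 values lay just below both Ctrl values, and the log2 change of -0.06 (SE 0.15, adjusted p = 0.954) was far smaller than its error, with a 95% interval of -0.43 to 0.30. Tbpl1 (ENSMUSG00000071359.13, chr10:22703879-22731938, minus strand) was at 262 and 275 TPM in Ctrl and at 281 and 253 TPM in AZ20. Its groups overlapped, with a log2 change of -0.01 (SE 0.15, adjusted p = 0.994) and an interval of -0.37 to 0.35. The level of Tbpl1 was above that of Tbp in all 4 libraries, and Tbpl1 made up 57.4% and 59.7% of their summed TPM in Ctrl and 60.3% and 58.5% in AZ20. Over all GENCODE transcripts, Tbp exons overlap Pdcd2 on the opposite strand over 2582 of 13576 bases (19.0%). Tbpl1 exons overlap Slc2a12 over 407 of 3271 bases (12.4%). The lengths behind the rows were shorter, at 1842 bases for Tbp and 2875 for Tbpl1. The Tbp length is less than the overlap itself, so these percentages are not shares of the counted bases. Counting is not stated to use strand, so reads in any counted part of these stretches cannot be told apart.

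Taf1 encodes the largest TFIID subunit, a scaffold with bromodomains, and was the lowest of the 9 genes in both groups. Taf1 (ENSMUSG00000031314.18, chrX:101532734-101601789, plus strand) had 0 reads in both Ctrl libraries, which at a floor of 3 reads allows levels of up to 0.0369 and 0.0323 TPM. With AZ20 it had 29 reads in replicate 1 and 7 in replicate 2, or 0.247 and 0.0662 TPM. The groups did not overlap. Of the 735 X-linked genes at 0 in both Ctrl libraries, 230 were likewise above 0 in both AZ20 libraries. The AZ20 mean of Taf1 was 4.54 times the mean Ctrl floor, and AZ20 replicates 1 and 2 were 7.16 and 1.91 times that floor. The mean of Taf1 stayed under the limit of 1 TPM, and in the fit without that limit the log2 change was 0.21 (SE 0.10, adjusted p = 0.989). Taf1 ranked 495 by AZ20 level among the 634 X-linked genes above 0 in AZ20, whereas Taf7l and Taf9b ranked 33 and 45 by the same measure among the 341 X-linked genes tested. The floor allows for counting error in Ctrl only. The AZ20 counts of 29 and 7 reads were taken as exact, so these ratios are not lower bounds.

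The TAF4 paralogs, which belong to the core of TFIID, were low in both groups and were highest in AZ20 replicate 2. Taf4a (ENSMUSG00000039117.16, chr2:179912152-179976646, minus strand) was at 6.43 and 5.57 TPM in Ctrl and at 7.96 and 12.9 TPM in AZ20. The groups did not overlap, but the AZ20 libraries differed from each other by more than AZ20 replicate 1 differed from Ctrl, and the log2 change of 0.67 (SE 0.29) had an adjusted p of 0.555 and an interval of -0.01 to 1.36. Taf4b (ENSMUSG00000054321.7, chr18:14783245-14900359, plus strand), the gonad-enriched paralog, was at 1.94 and 1.92 TPM in Ctrl and at 2.24 and 4.19 TPM in AZ20. Its log2 change was 0.48 (SE 0.33, adjusted p = 0.767), with an interval of -0.30 to 1.27. The log2 change was 0.36 for Taf4a and 0.15 for Taf4b without AZ20 replicate 2, and 0.99 and 0.82 without AZ20 replicate 1. The summed round spermatid markers, given above, were higher with AZ20 in both pairs. Unlike the TAF4 genes, they were highest in AZ20 replicate 1, at 806 TPM against 264 TPM in AZ20 replicate 2. Their part in these differences was not tested. Taf4b was below Taf4a in every library and made up 23.2% and 25.6% of their summed TPM in Ctrl and 22.0% and 24.6% in AZ20.

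Taf7 and Taf7l encode forms of the same subunit, which restrains the activity of TAF1 before initiation, and of these Taf7l was called and Taf7 was not. Taf7 (ENSMUSG00000051316.8, chr18:37640491-37644204, minus strand) was at 54.6 and 50.2 TPM in Ctrl and at 65.0 and 76.1 TPM in AZ20. Both AZ20 values were higher than both Ctrl values, with a log2 change of 0.42 (SE 0.19, adjusted p = 0.595) and an interval of -0.03 to 0.86. Taf7l (ENSMUSG00000009596.9, chrX:134460118-134476490, minus strand) was at 0.102 and 0.851 TPM in Ctrl and at 68.3 and 65.5 TPM in AZ20. The Ctrl values rested on 2 and 19 reads and the AZ20 values on 1922 and 1663 reads. Taf7l rose by 5.57 on the log2 scale (SE 0.30, adjusted p = 9.33e-05, interval 4.85 to 6.29), and it rose in both replicate pairs. The ratio of the group means was 140, and it depends on the few Ctrl reads: replicate 1 gave a 667-fold ratio with an exact 95% counting interval of 184 to 5511, and replicate 2 gave 76.9-fold with 49.1 to 128. Against Ctrl replicate 2 alone, the ratio of the AZ20 mean was 78.6.

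Taf9 and Taf9b encode forms of a histone-fold subunit that TFIID shares with the coactivator SAGA, and here too the X-linked gene was called and the autosomal gene was not. Taf9 (ENSMUSG00000052293.14, chr13:100651579-100656060, plus strand) was at 1425 and 1704 TPM in Ctrl and at 1689 and 1556 TPM in AZ20. The groups overlapped, with a log2 change of 0.06 (SE 0.14, adjusted p = 0.955, interval -0.28 to 0.39). This row likely also holds reads of Ak6, an adenylate kinase gene with which it shares exon sequence. Ak6 has no row of its own, and in GENCODE 1564 of the 2120 exon bases of Taf9 overlap it. The length behind the row was 2126 bases. The RefSeq exons make 1334 bases for Taf9 and 2128 for both genes together, while the GENCODE exons of Taf9 make 2120 by themselves. Reads were counted on the refGene annotation, and among the RefSeq lengths that of both genes together is the near one. The levels of this row are therefore read as those of Taf9 that likely include Ak6. Taf9b (ENSMUSG00000047242.14, chrX:106206883-106221158, minus strand) was at 0.372 and 0.781 TPM in Ctrl, from 10 and 24 reads, and at 47.8 and 55.8 TPM in AZ20, from 1853 and 1952 reads. Taf9b rose by 5.07 on the log2 scale (SE 0.26, adjusted p = 6.85e-05, interval 4.46 to 5.68). The ratio of the group means was 89.9, with 129-fold in replicate 1 (exact counting interval 69.8 to 269) and 71.5-fold in replicate 2 (47.9 to 112).

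The calls of Taf7l and Taf9b depend on having both AZ20 libraries in the fit. Without AZ20 replicate 1 the log2 changes were 5.54 and 5.18 with adjusted p-values of 0.107 and 0.0902, and without AZ20 replicate 2 they were 5.60 and 4.97 with 0.103 and 0.0791, in limma fits in which the lone AZ20 library is assumed to vary like the Ctrl libraries. With no limit on low values the adjusted p-values were 0.124 for Taf7l and 0.0900 for Taf9b over all 23420 genes.

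The promoter windows of the X-linked genes are shown because these 3 genes share a chromosome and a Ctrl level near 0 but reached different levels with AZ20. The RefSeq windows of GRCm38.p6, from 250 bases before to 50 bases after a start, were searched on both strands for 5 motifs chosen after the sequences had been read. The TATA box was searched as TATAAA and the box bound by NF-Y as CCAAT. The GC box, which Sp1 can bind, was searched as GGGCGG and the E-box as CACGTG. For YY1, a zinc finger factor, the letters were AANATGGC. Matches on either strand are in capitals, and where matches overlap or touch the capitals run on. The windows lie at chrX:101532485-101532784 on the plus strand for Taf1, chrX:134476441-134476740 on the minus strand for Taf7l and chrX:106221109-106221408 on the minus strand for Taf9b, the first of its 2 windows.
Taf1: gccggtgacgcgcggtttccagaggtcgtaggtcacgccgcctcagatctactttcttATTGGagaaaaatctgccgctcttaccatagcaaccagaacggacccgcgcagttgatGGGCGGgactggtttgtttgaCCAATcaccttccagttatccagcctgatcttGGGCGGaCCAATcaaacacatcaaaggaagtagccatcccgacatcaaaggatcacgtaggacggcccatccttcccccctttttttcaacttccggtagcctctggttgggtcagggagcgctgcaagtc
Taf7l: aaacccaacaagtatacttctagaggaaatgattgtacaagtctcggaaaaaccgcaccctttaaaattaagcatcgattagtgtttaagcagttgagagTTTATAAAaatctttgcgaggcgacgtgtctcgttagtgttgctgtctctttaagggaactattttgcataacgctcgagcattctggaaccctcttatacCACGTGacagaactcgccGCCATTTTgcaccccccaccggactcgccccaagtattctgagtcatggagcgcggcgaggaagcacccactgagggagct
Taf9b: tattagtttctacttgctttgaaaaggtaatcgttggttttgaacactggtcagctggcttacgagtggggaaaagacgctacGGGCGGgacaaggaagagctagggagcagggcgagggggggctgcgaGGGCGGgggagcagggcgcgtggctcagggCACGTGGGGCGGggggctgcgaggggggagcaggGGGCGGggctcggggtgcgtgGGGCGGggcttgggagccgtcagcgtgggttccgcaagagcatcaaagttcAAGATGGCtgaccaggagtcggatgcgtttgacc

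The Taf1 window held 3 CCAAT boxes and 2 GC boxes, found in 37.4% and 35.9% of all 32544 windows. The Taf7l window held a TATAAA on each strand, overlapping each other, with the plus-strand copy beginning 148 bases before the start. It also held a CACGTG that begins 49 bases before the start and an AANATGGC on the minus strand 31 bases before it. TATAAA was found in 13.6%, CACGTG in 7.17% and AANATGGC in 6.08% of all windows. The Taf9b window held 5 GC boxes, a CACGTG 90 bases before the start and an AANATGGC after the start. Among the autosomal genes with a window, GC boxes were found for Tbp, Tbpl1, Taf4a and Taf9, and Taf4a also held CCAAT and AANATGGC. These matches are a description of the letters, not binding sites or causes, and 7 of the 9 genes had a window.

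The ratio of the paralogs was then taken within each library, as the difference of log2(TPM + 1). A scaling common to both genes drops out, apart from the effect of the added 1. That effect is large for Taf7l and Taf9b in Ctrl, which were below 1 TPM, and it makes their Ctrl ratios less extreme. For Taf7l over Taf7 the log2 ratio was -5.66 and -4.79 in Ctrl and 0.07 and -0.21 in AZ20. With AZ20 Taf7l was thus at about the level of Taf7, and its share of their summed TPM went from 0.187% and 1.67% to 51.3% and 46.3%. For Taf9b over Taf9 the log2 ratio was -10.02 and -9.90 in Ctrl and -5.11 and -4.78 in AZ20. Taf9b remained a small share of the pair, at 0.0261% and 0.0458% in Ctrl and 2.75% and 3.46% in AZ20. The Taf9 row was 35.3 and 27.9 times as high even with AZ20. That row likely includes Ak6, so the share of Taf9b against Taf9 alone may be larger. The change of the log2 ratio was 5.15 for Taf7l over Taf7 and 5.02 for Taf9b over Taf9, and neither pair's groups overlapped. It was 0.05 for Tbpl1 over Tbp, whose groups overlapped, and -0.19 for Taf4b over Taf4a, whose groups did not. Exact two-sided permutation tests gave p = 0.667 for Tbpl1 over Tbp and p = 0.333 for each of the other 3 pairs, and 0.333 is the smallest p that 2 against 2 libraries allow (0.667 and 0.444 after adjustment over the 4 pairs). No pair could therefore pass by this test.

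**Figure D2:**
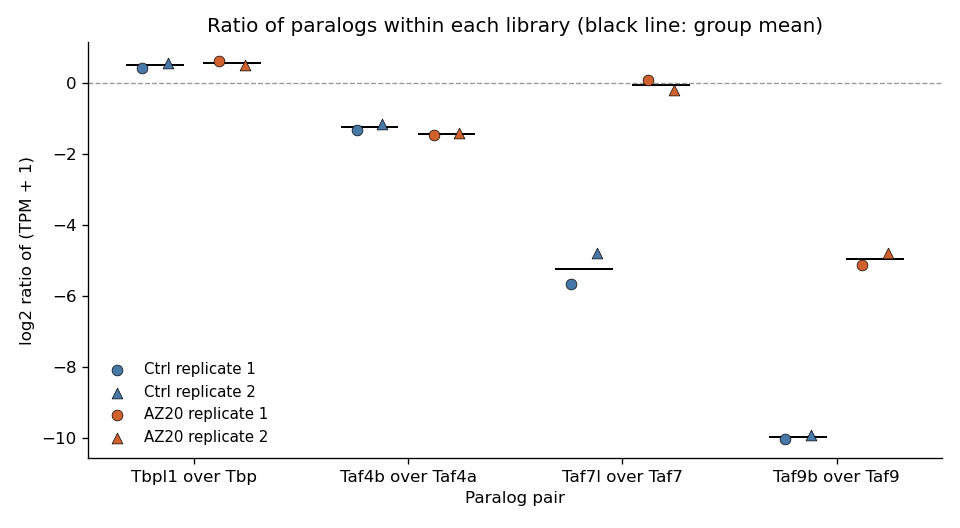
log2 ratio of (TPM + 1) for each paralog pair within each library, with Ctrl in blue, AZ20 in orange and group means as black lines. Taf7l over Taf7 moved from -5.22 to -0.07 and Taf9b over Taf9 from -9.96 to -4.94, while Tbpl1 over Tbp and Taf4b over Taf4a stayed between -1.47 and 0.60 in all 4 libraries.

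The order of the levels changed below Taf7. In Ctrl the order by mean TPM was Taf9 (1564 ± 197, SD, n = 2), Tbpl1 (268 ± 8.94), Tbp (190.1 ± 6.46), Taf7 (52.4 ± 3.09), Taf4a (6.0 ± 0.61), Taf4b (1.93 ± 0.0174), Taf9b (0.576 ± 0.289), Taf7l (0.477 ± 0.529) and Taf1 at 0. The libraries of Taf9b and Taf7l overlapped in Ctrl, and all other neighbours in this order were apart. The level of the Taf9 row likely includes Ak6. In AZ20 the order was Taf9 (1622 ± 94.4), Tbpl1 (267 ± 19.8), Tbp (182 ± 3.56), Taf7 (70.5 ± 7.87), Taf7l (66.9 ± 2.0), Taf9b (51.8 ± 5.65), Taf4a (10.4 ± 3.47), Taf4b (3.22 ± 1.37) and Taf1 (0.157 ± 0.128). Here only Taf7 and Taf7l overlapped. Taf7l and Taf9b were therefore below both TAF4 paralogs in all Ctrl libraries and above both in all AZ20 libraries.

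Compared with the rest of the X chromosome, Taf7l and Taf9b were among the genes with larger changes and higher levels. By log2 change Taf7l ranked 29 and Taf9b 48 of the 341 X-linked genes tested, and by AZ20 level they ranked 33 and 45. The median log2 change of X-linked genes was 2.61, with quartiles of 1.46 and 4.01, and their median AZ20 level was 6.45 TPM. Of the 1034 X-linked genes listed, 337 had a mean above 1 TPM in AZ20, and Taf1 was not among them. Neighbours were the nearest tested genes on each side, and untested genes in between were passed over (2 before Taf1, 1 before and 2 after Taf7l, and 1 after Taf9b). A neighbour at or near 0 in Ctrl could be tested only through its AZ20 level, so its values are a description. The neighbours of Taf1 were Zmym3, a zinc finger gene, with a log2 change of 2.64 (adjusted p = 0.00378), and Ogt, the gene of the O-GlcNAc transferase, with 1.83 (adjusted p = 0.0342), both at 0 in Ctrl and called. Zmym3 was at 5.65 and 4.82 TPM and Ogt at 2.59 and 2.52 TPM with AZ20. For Taf7l the neighbours were Cenpi, a centromere protein gene, with 1.82 (adjusted p = 0.0622, not called), and Rpl36a, a ribosomal protein gene, with 3.61 (adjusted p = 0.00175, called). Both were lower than Taf7l in AZ20. Taf9b lies 3.18 kb from Pgk1, the X-linked phosphoglycerate kinase gene, which was at 1.82 and 0.529 TPM in Ctrl and 2.14 and 1.73 TPM in AZ20 and did not pass the test (log2 change 0.50, adjusted p = 0.804). Its other neighbour, Fndc3c1, had a log2 change of 1.12 (adjusted p = 0.316).

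By Euclidean distance of log2(TPM + 1) over the 4 libraries, the genes nearest to Taf7l were Hnrnph2 (distance 0.50) and Gm5071 (0.53), and those nearest to Taf9b were Hnrnph2 (0.35) and Pet2 (0.48). Hnrnph2, an RNA-binding protein gene, was at 0.293 and 0.513 TPM in Ctrl and 57.0 and 56.3 TPM in AZ20. All 3 of these genes are X-linked. Only genes tested were searched, so for Taf1, which is under the 1 TPM limit, genes at or near 0 were not considered. Within that search Prr23a on chromosome 9 (1.15) and the X-linked histone demethylase gene Kdm6a (1.15) were listed for Taf1.

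**Figure D3:**
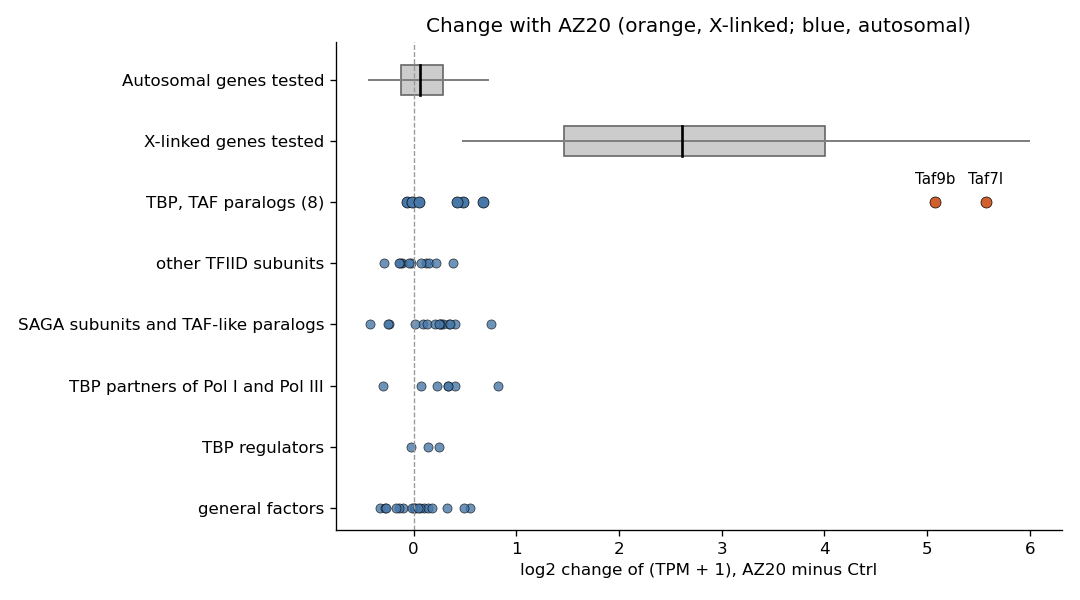
log2 change of (TPM + 1) with AZ20 for the 8 tested TBP and TAF genes and for 5 lists of other basal factors (1 point a gene), beside the median, quartiles and 5th to 95th percentiles of autosomal and X-linked genes. Taf7l at 5.57 and Taf9b at 5.07 stand in the upper range of X-linked genes, and all other points lie between -0.42 and 0.82.

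The other genes of the same machinery were taken from lists of 56 genes, all of them autosomal, of which 53 were tested. In limma 0 of the 53 were called in either direction, 2 were higher at an unadjusted p under 0.05 and 0 lower (828 and 117 of the 10316 genes tested), and voom on the recovered reads also called 0. Their median log2 change was 0.10, against 0.07 over all genes tested and 0.06 over autosomal genes tested. Both AZ20 libraries were higher than both Ctrl libraries for 14 of the 53 and lower for 7, against 26.4% and 11.7% of all genes tested. The medians were -0.02 for 11 other TFIID subunits, 0.25 for 15 SAGA subunits and TAF-like genes, 0.34 for 7 partners of TBP with RNA polymerase I and III, 0.14 for 3 regulators of TBP and 0.01 for 17 other general factors. None of these lists held an X-linked gene or a gene near the changes of Taf7l and Taf9b.

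The highest log2 changes of the 53 were those of Taf1a, a subunit of the RNA polymerase I factor SL1, at 0.82 (adjusted p = 0.237), the SAGA deubiquitinase gene Usp22 at 0.75 (adjusted p = 0.644) and Gtf2a1, the TFIIA large subunit, at 0.55 (adjusted p = 0.506). Taf1a was at 7.58 and 6.59 TPM in Ctrl and 13.3 and 13.2 TPM in AZ20. The lowest were those of the SAGA gene Sgf29 at -0.42 (adjusted p = 0.677), the TFIIB gene Gtf2b at -0.33 (adjusted p = 0.768) and the RNA polymerase III factor gene Brf2 at -0.30 (adjusted p = 0.808). Gtf2a1l, the germ cell form of Gtf2a1, was at 155 and 185 TPM in Ctrl and 184 and 135 TPM in AZ20, above Gtf2a1 in all 4 libraries. Taf5, a scaffold subunit of TFIID, was at 18.0 and 15.8 TPM in Ctrl and 14.9 and 22.6 TPM in AZ20. Tbpl2, the TBP paralog of oocytes, was at 0 in all 4 libraries. Taf7l2, an autosomal relative of Taf7l listed as 4933416C03Rik, was at 248 and 187 TPM in Ctrl and 201 and 224 TPM in AZ20, with a log2 change of -0.02 (adjusted p = 0.990). It was thus above both Taf7 and Taf7l in every library.

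**Figure D4:**
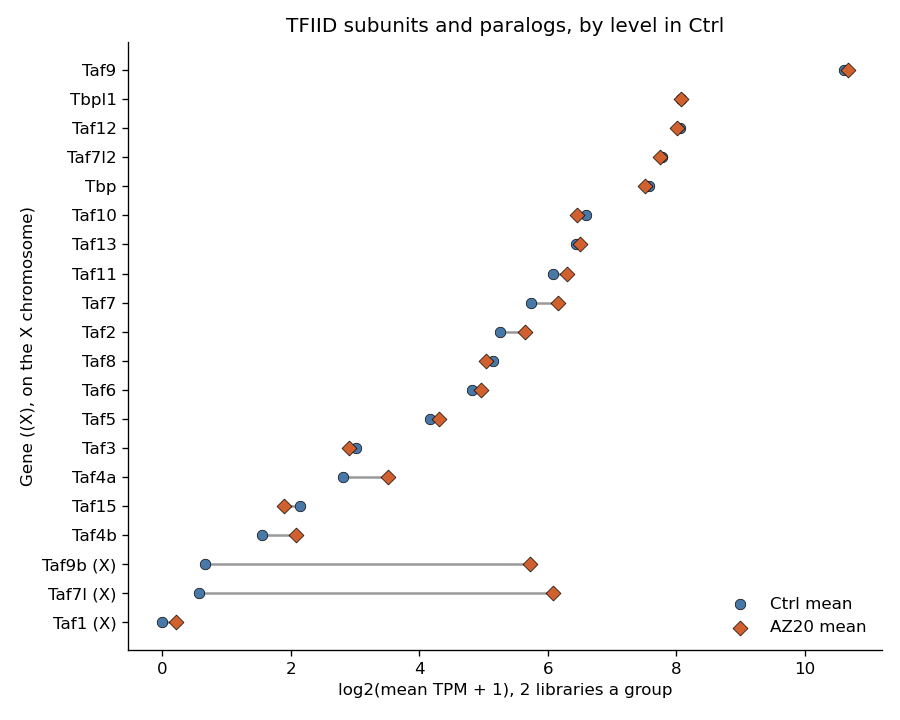
Mean level of each TFIID subunit or paralog above 0, as log2(mean TPM + 1), in Ctrl (blue circles) and AZ20 (orange diamonds), ordered by the Ctrl mean of 2 libraries. The 3 X-linked genes were the lowest in Ctrl, and with AZ20 Taf7l and Taf9b moved to between Taf7 at 70.5 TPM and Taf2 at 49.1 TPM while Taf1 remained lowest.

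Among the 20 TFIID subunits and paralogs above 0 TPM, the 3 lowest in Ctrl were the X-linked Taf9b, Taf7l and Taf1. The autosomal genes of this set ran from Taf4b at 1.93 TPM to the Taf9 row, which likely includes Ak6, at 1564 TPM in Ctrl. With AZ20, Taf7l and Taf9b lay among the middle TAF genes, below Taf11 (77.6 TPM) and Taf13 (89.6 TPM) and above Taf2 (49.1 TPM) and Taf6 (30.1 TPM). The cause of the difference between Taf1 and the other X-linked TAF genes was not tested.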

How the data were processed

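RNA-seq was done on 4 libraries of sorted and cultured pachytene spermatocytes, 2 Ctrl and 2 AZ20. The authors trimmed paired reads of 150 bp with Trimmomatic 0.39, aligned them to GRCm38/mm10 with STAR 2.5.4b, keeping unique alignments, counted them with featureCounts 2.0.1 on the UCSC refGene annotation, and deposited TPM values, 1 column per library, each summing to 1000000. Their own test of each gene used a count model. After 92 blank lines were left out, 23420 genes remained.

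Because all libraries share 1 length per gene, low TPM values fall on steps, from which read numbers were worked back. These came out whole for 16856 of 16857 genes above 0. A common factor cannot be seen in TPM alone and was set from transcript lengths. Genes were placed with GENCODE and RefSeq (127 not placed). Limma 3.58.1 (R 4.3.3, intensity trend) was fitted to log2(TPM + 1) and was tested on simulated data. Python 3.11.15 was used elsewhere (numpy 2.4.6, scipy 1.17.1, pandas 2.3.3), with matplotlib 3.10.9 for figures. Counting intervals and floors (3 reads) cover counting error only.

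The replicate number was a block in an alternative fit. The methods give the pairing, and same-numbered libraries deviated together from their group means (r = 0.23 over autosomal and 0.18 over X-linked genes).

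The members, gene lists and tests were chosen with earlier results of these data known. All 9 genes were named, with the 3 highest and 3 lowest of the other basal factors, Gtf2a1l, Gtf2a1, Tbpl2, Taf7l2 and Taf5, and the 2 tested genes nearest in pattern to each X-linked gene. Chromosomal neighbours (the nearest tested gene on each side) and the other named TAF genes were added after values were seen. The alternatives were pseudocounts of 0.1 and 0.01, no filter or a mean above 5 TPM, a common autosomal total, quantile normalization, no trend, the replicate block, voom on recovered reads, no minimum fold, and leaving out each library.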

Additional observations from a re-analysis of the deposited data

How the results depend on the processing

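Taf7l and Taf9b remained higher with AZ20 in all 14 alternatives, with log2 changes of 5.20 to 7.75 and 4.80 to 6.56, and both were called in 11 of them. These alternatives are not independent checks. No filter, a mean above 5 TPM, no trend, the replicate block and no minimum fold use the same log2 values, so their changes equal the main ones by construction. Dropping the minimum fold could not undo a call. The number of TBP and TAF genes called higher was 0 instead of 2 with no filter on low values, where 23420 genes were tested, and ranged from 0 to 2 when 1 library was left out, with 0 without either AZ20 library and 2 without either Ctrl library. With the replicate block, which follows the pairing of libraries by mouse, 2 were called higher and 0 lower (limma, adjusted p = 2.81e-19 for Taf7l and 2.84e-18 for Taf9b). With so few libraries these p-values rest largely on the variance that limma shares across genes, and they do not measure how well the replicates match. Voom gave log2 changes of 7.58 and 6.49. The block changed no other call among these genes or the other basal factors. Under quantile normalization the median over all genes shifted by -0.20.

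The change of the log2 ratio was 6.83 and 7.32 for Taf7l over Taf7 with pseudocounts of 0.1 and 0.01 TPM, and 6.27 and 6.50 for Taf9b over Taf9. It was 4.70 for Taf9b over Taf9 after quantile normalization and -0.094 for Taf4b over Taf4a with a pseudocount of 0.01. Leaving out 1 library gave -0.016 to 0.12 for Tbpl1 over Tbp, so its direction turned. The small log2 changes of Tbpl1 and Taf9 also turned: for Tbpl1 to 0.0021 with a common autosomal total, with -0.087 to 0.064 over left-out libraries, and for Taf9 to -0.072, with a highest value of 0.19 over left-out libraries. For these the cause was not tested. With 2 libraries a group, changes under the intervals given could not be told from 0, and Taf1 rested on 36 reads in all.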
